A study of Schizosaccharomyces pombe with 6 samples.

Results

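Long noncoding RNAs outside the pericentromeric repeats were followed in small RNA pulled down with Argonaute from the fission yeast Schizosaccharomyces pombe. The members were selected on their raw counts: all features with the ID prefix SPNCRNA whose counts summed to at least 50 over the 6 libraries were taken, leaving out SPNCRNA.231, SPNCRNA.232, SPNCRNA.234, SPNCRNA.359 and SPNCRNA.373 of the pericentromeres. This gave 80 members out of 1538 features with that prefix and 6878 features in all. The members just inside the limit were SPNCRNA.862 with 50 summed counts and SPNCRNA.728 and SPNCRNA.1538 with 51 each. Just outside it were SPNCRNA.1324 and SPNCRNA.1177 with 49 each and SPNCRNA.936 with 47. Because 77.6% of all assigned reads lay in the 24h libraries, the limit favoured RNAs that were abundant at 24h.

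Both groups were the wild-type strain 975 of mating type h+, grown at 32 °C in the minimal medium EMM with amino acids, adenine and uracil added. The 0h group, 3 libraries, was the control, and the 24h group, 3 libraries, had been kept in EMM without nitrogen for 24 h. Argonaute complexes were taken from ground frozen cells with beads that bind the FLAG peptide, although the labels named no tagged Ago1 allele, and gel slices of RNA 20 to 30 nucleotides long were sequenced. In such bulk samples, fewer cells holding a small RNA and less of it per cell cannot be told apart.

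In fission yeast RNA interference, Dicer cuts double-stranded RNA into small RNAs that Ago1 carries to matching transcripts, and the best known sources are the centromeric repeats. Other noncoding RNAs are handled by RNA elimination, in which the protein Mmi1 binds the RNA, often at copies of the core motif TNAAAC, and the exosome with its helper proteins degrades it. When nitrogen runs out, cells of a single mating type leave the cell cycle. In cells that mate and enter meiosis, the Mmi1 system is switched off so that meiotic RNAs can accumulate.

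The label long noncoding RNA held only in part. In the RefSeq annotation of assembly ASM294v3, 73 members matched by ID, 4 by an older ID, and SPNCRNA.504, SPNCRNA.893 and SPNCRNA.99 had no match. Structural RNAs of known function made up 13 members, and they held 71.2% of the 59557 member reads. Antisense RNAs, which overlap a protein-coding gene on the opposite strand, made up 49 members and 22.3% of the reads. Of these, 7 lay wholly opposite the coding gene and 32 had at least 50% of their length opposite it. Another 12 members were intergenic with 4.88% of the reads, and 3 overlapped a coding gene on the same strand.

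The beginnings of 3 RNAs described below are given 5′ to 3′ with copies of TNAAAC on the RNA's own strand in capitals. The first, srp7, held the most member reads in each library, and among the tested antisense RNAs SPNCRNA.577 had the largest rise and SPNCRNA.838 the largest fall. The sequences are from RefSeq ASM294v3, on the plus strand of chromosome I for srp7 (SPNCRNA.98, whole, 255 bases) and for SPNCRNA.838 (the first 300 of 2567 bases). SPNCRNA.577 is on the minus strand of chromosome II, and its first 300 of 3410 bases are shown.
srp7: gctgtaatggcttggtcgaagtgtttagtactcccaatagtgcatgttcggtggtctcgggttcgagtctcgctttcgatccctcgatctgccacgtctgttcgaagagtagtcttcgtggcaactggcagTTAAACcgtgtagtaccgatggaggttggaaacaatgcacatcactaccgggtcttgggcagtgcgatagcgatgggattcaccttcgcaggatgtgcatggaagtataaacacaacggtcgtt
SPNCRNA.838: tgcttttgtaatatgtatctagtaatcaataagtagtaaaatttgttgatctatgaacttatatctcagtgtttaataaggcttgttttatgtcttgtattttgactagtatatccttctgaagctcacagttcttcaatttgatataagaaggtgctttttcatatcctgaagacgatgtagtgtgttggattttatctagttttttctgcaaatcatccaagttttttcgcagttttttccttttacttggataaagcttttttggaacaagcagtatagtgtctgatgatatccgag
SPNCRNA.577: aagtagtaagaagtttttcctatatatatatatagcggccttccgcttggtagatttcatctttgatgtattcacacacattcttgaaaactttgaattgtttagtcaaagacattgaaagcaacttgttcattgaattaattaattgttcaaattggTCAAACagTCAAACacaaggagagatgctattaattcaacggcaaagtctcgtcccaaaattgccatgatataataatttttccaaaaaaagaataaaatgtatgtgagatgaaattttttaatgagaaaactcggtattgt

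The letters TNAAAC were found 1 time in srp7 and 2 times in the stretch of SPNCRNA.577. The stretch of SPNCRNA.838 had 0 copies on its own strand and 2 on the other, but over the whole RNA SPNCRNA.838 had 5 copies on its own strand (1.95 per kilobase) and SPNCRNA.577 had 8 (2.35 per kilobase). Such copies are common. Among 1350 matched noncoding RNAs of at least 300 bases, 48.3% had a copy in the first 300 bases on their own strand. On the other strand the share was 45.0%. Among 70 members the shares were 48.6% on their own strand and 48.6% on the other. Over whole RNAs the median was 1.96 copies per kilobase in 73 members and 1.89 in 1428 matched noncoding RNAs. A match is a description of letters only, and the factor's binding was not measured.

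Assigned reads ran from 48040 to 145861 per 0h library and from 54393 to 758789 per 24h library, so 24h replicate 3 alone held 55.4% of them. They were 0.495 to 0.601% of aligned reads at 0h and 2.26 to 5.39% at 24h, and reads of low mapping quality, left uncounted, were 90.3 to 96.4% of the aligned reads. A feature's value can therefore be read as a share of assigned reads or of aligned reads, and these scales differ between groups. Levels below are in CPM, counts per 1000000 assigned reads, after TMM scaling, a factor per library that centres the change of most features, unless another scale is named. The median log2 change of the 1716 tested features was -0.02 on this scale, 0.69 when scaled by library totals and 3.55 when scaled by aligned reads.

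Of the assigned reads, the members held 2.71, 3.05 and 3.13% in the 0h libraries and 4.78, 6.35 and 4.19% in the 24h libraries. The groups did not overlap, with means of 2.96% ± 0.222 and 5.11% ± 1.12 (SD, n = 3), a difference of 2.14 percentage points. With the 5 pericentromeric RNAs taken out of the total, the means were 5.10% ± 0.278 and 5.23% ± 1.05, the difference was 0.136 points, and the groups overlapped. As CPM of aligned reads, the members had 158 ± 27.2 at 0h and 1986 ± 1286 at 24h (SD, n = 3), 12.5-fold more, again with no overlap.

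**Figure D1:**
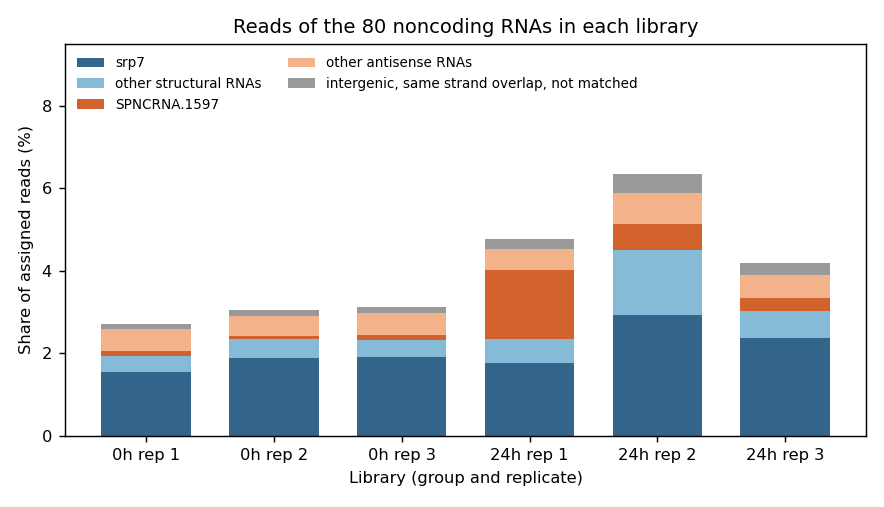
Share of assigned reads (%) held by the 80 noncoding RNAs in each of the 6 libraries, stacked by class. srp7 is the largest block in each library (1.54% of assigned reads or more), and SPNCRNA.1597 stands out in 24h replicate 1.

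Intergenic members made up 0.0688% ± 0.0138 of assigned reads at 0h against 0.258% ± 0.108 at 24h, with no overlap (SD, n = 3). Antisense members held 0.626% ± 0.0607 and 1.48% ± 0.649, also without overlap. That separation was lost without 1 RNA, SPNCRNA.1597, which held 76.6% of the antisense reads of 24h replicate 1. Without it, antisense members held 0.512% ± 0.0334 at 0h and 0.610% ± 0.124 at 24h, and the groups overlapped. These class shares, with and without SPNCRNA.1597, are of totals that include the pericentromeric RNAs. With those RNAs taken out, the groups overlapped for all members together and for antisense members, but not for intergenic members.

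Of the 80 members, 43 had enough reads to be tested with edgeR's quasi-likelihood test. Its filter asked for about 77.4 CPM, here before TMM scaling, in at least 3 libraries. At a Benjamini-Hochberg adjusted p under 0.05 over all 1716 features, 18 members (41.9%) passed, beside 25.9 percent of all tested features: 8 members (18.6%) were higher at 24h, beside 13.1 percent of all tested features, and 10 (23.3%) were lower, beside 12.8 percent. The other 25 did not pass. The filter shaped these counts: each of the 10 lower members passed it only through the 0h libraries, and 5 of the 8 higher members only through the 24h libraries. The groups of CPM did not overlap for 23 of the 43, or 53.5%, beside 44.0 percent of all tested features. The median log2 change of the 43 was 0.16.

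By class, among the tested members, values were spread differently, which was not tested. Of 12 structural RNAs, 3 were higher and 0 lower with a median log2 change of 0.80, whereas of 23 antisense RNAs 3 were higher and 8 lower with a median of -1.03. With no filter, which takes in all 49 antisense members, 11 antisense RNAs were higher and 8 lower with a median of -0.23. Of the 13 structural RNAs, 5 were then higher and 0 lower with a median of 1.22. Among all features with at least 50 summed counts, that fit called 15.4 percent higher and 5.99 percent lower. Of 5 tested intergenic RNAs, 2 were higher and 1 lower. Leaving out each library in turn left 5 to 10 lower antisense RNAs (5 without 0h replicate 3) and 0 to 3 higher structural RNAs. The 0 was found when 0h replicate 2 or 0h replicate 3 was left out. The tested set changed as well, from 22 antisense RNAs without 24h replicate 3 to 36 without 0h replicate 1. Over the same fits the antisense median ran from -1.75 (without 24h replicate 3) to -0.51 (without 24h replicate 2), and the structural median from 0.31 (without 24h replicate 2) to 1.14. The antisense median was also -0.51 with the pericentromeric RNAs out of the table (21 tested) and -0.55 by DESeq2 (all 49). With library totals 17 members were higher, beside 33.1 percent of all tested features, and 8 lower, beside 5.54 percent. Per aligned read 0 lower calls remained: 34 of the 43 members were higher, beside 93.9 percent of all tested features, and 0 were lower, beside 0.233 percent. The edgeR test per aligned read called 12 of 12 structural and 16 of 23 antisense RNAs higher.

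**Figure D2:**
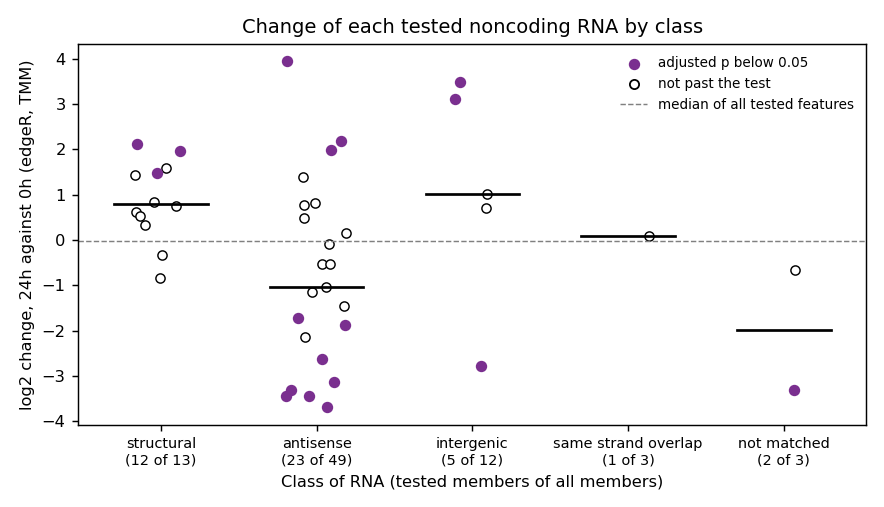
Log2 change at 24h against 0h (TMM scaling) of each tested member by class, with filled points past an adjusted p of 0.05, black bars at class medians and a dashed line at the median of all tested features. The 23 tested antisense RNAs have a median of -1.03, which is -0.23 over all 49 with no filter, and the 12 tested structural RNAs have one of 0.80; per aligned read both medians are positive, 2.33 and 4.69.

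Among the structural RNAs, srp7 encodes the 7SL RNA of the signal recognition particle, which guides secreted proteins to the endoplasmic reticulum. Its level was 22226, 22415 and 23779 CPM at 0h and 14306, 18444 and 21605 CPM at 24h. The groups did not overlap, but the change did not pass the test (log2 change -0.33, SE 0.59, edgeR adjusted p = 0.706). Per kilobase of its 255 bases it stood at 89438 CPM at 0h, far above the next member, snR30, at 2355 CPM per kilobase. It took 56.7, 61.8 and 61.2% of member reads at 0h and 36.9, 46.1 and 56.4% at 24h. Without srp7 the members' share of assigned reads was 1.18% ± 0.0267 in the 0h group against 2.75% ± 0.829 in the 24h group (SD, n = 3), again without overlap. These totals include the pericentromeric RNAs. With those taken out, all members held 5.36% in 0h replicate 1 and 4.35% in 24h replicate 3, libraries with similar srp7 parts. Without srp7 the groups then overlapped too, so this separation was lost.

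The small nucleolar RNAs guide chemical modification or processing of ribosomal RNA. The primary transcript snoZ (SPNCRNA.659), which carries snoZ3, Z4, Z5, Z7 and Z8, had 3343, 3094 and 2259 CPM at 0h and 1493, 2148 and 1238 CPM at 24h. The groups did not overlap, and the change of -0.83 (SE 0.44) did not pass the test (edgeR adjusted p = 0.183). snR30 (SPNCRNA.906), the U17 RNA needed to process the small-subunit ribosomal RNA, had 903, 676 and 724 CPM at 0h and 732, 2228 and 1133 CPM at 24h. Its groups overlapped and the change of 0.85 (SE 0.47) did not pass (edgeR adjusted p = 0.205), although with library totals it did (1.69, edgeR adjusted p = 0.0208).

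A pair of primary transcripts of single small nucleolar RNAs were higher at 24h. SPNCRNA.1394, the precursor of snR3, had 181, 264 and 298 CPM at 0h and 418, 801 and 1735 CPM at 24h. All 24h libraries lay above the 0h libraries and the log2 change was 1.97 (SE 0.53, edgeR adjusted p = 0.0196). SPNCRNA.901, the precursor of snR91, had 60.2, 52.8 and 42.6 CPM at 0h and 74.7, 325 and 195 CPM at 24h. Its groups did not overlap, with 24h replicate 1 close to the 0h libraries, and the log2 change was 2.12 (SE 0.54, edgeR adjusted p = 0.0165). Without single libraries the calls could be lost: for SPNCRNA.901 the edgeR adjusted p was 0.0605 without 0h replicate 2 and 0.0856 when 0h replicate 3 was left out. For SPNCRNA.1394 it was 0.0696, 0.0767 and 0.0569 without 0h replicates 1, 2 and 3 and 0.0509 without 24h replicate 3, when the change was 1.24.

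The telomerase RNA ter1 (SPNCRNA.214), the template for telomere repeats, had 90.3, 52.8 and 42.6 CPM at 0h and 149, 184 and 129 CPM at 24h. Every 24h library lay above every 0h library, and the log2 change was 1.49 (SE 0.42, edgeR adjusted p = 0.0237). The edgeR adjusted p was 0.0935, 0.131 and 0.0582 when 0h replicate 2, 0h replicate 3 and 24h replicate 2 were left out in turn, and DESeq2 gave an adjusted p of 0.106. The catalytic RNAs of a pair of related processing enzymes did not pass: rrk1 of RNase P (SPNCRNA.128), which trims transfer RNA precursors, had a log2 change of 0.33 (SE 0.38, edgeR adjusted p = 0.557). mrp1 of RNase MRP (SPNCRNA.727), which cuts ribosomal RNA precursors, had one of 0.75 (SE 0.49, edgeR adjusted p = 0.278). snR90 and snR95, of the box H/ACA family that guides pseudouridine formation, had log2 changes of 1.44 (SE 0.57) and 1.59 (SE 0.71) with edgeR adjusted p of 0.0877 and 0.125.

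**Figure D3:**
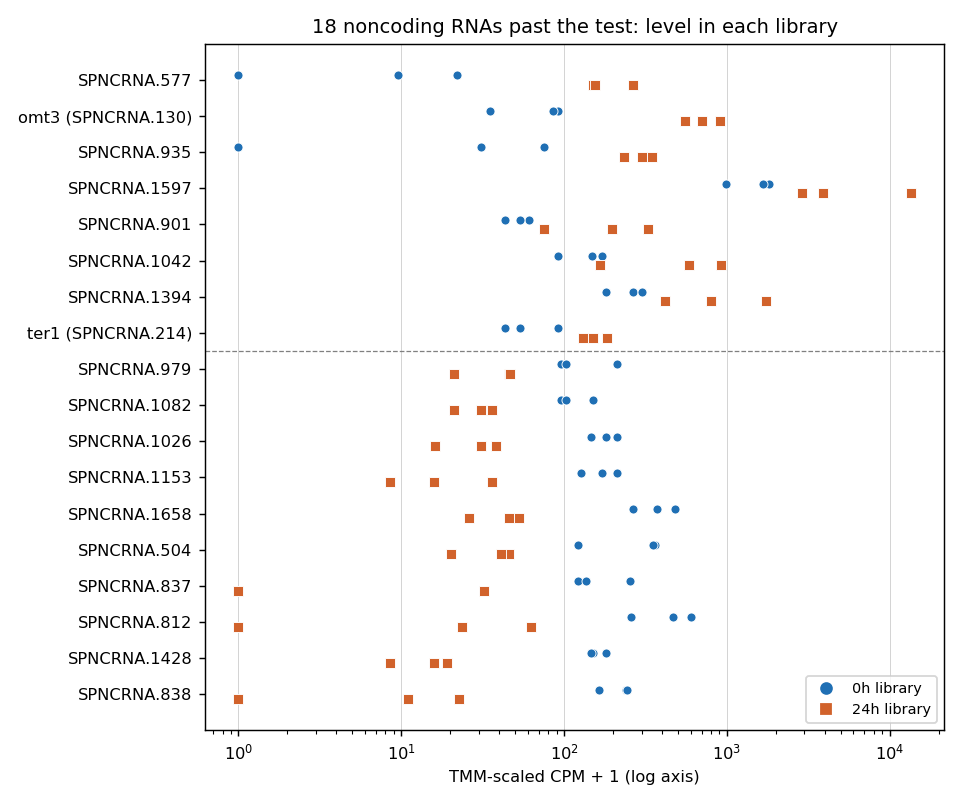
Level of the 18 members past the test in each library, as TMM-scaled CPM plus 1 on a log axis (circles 0h, squares 24h). The 8 members above the dashed line were higher at 24h and the 10 below it lower; of the lower ones, SPNCRNA.1658, SPNCRNA.1026, SPNCRNA.1082, SPNCRNA.979, SPNCRNA.1153 and SPNCRNA.504 change sign per aligned read.

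omt3 (SPNCRNA.130), a meiosis-specific RNA that gathers Smp proteins in a focus at its own gene, was the tested intergenic member with the largest rise. It had 90.3, 84.5 and 34.1 CPM at 0h and 702, 914 and 550 CPM at 24h. Every 24h library lay far above every 0h library, and the log2 change was 3.48 (SE 0.46, edgeR adjusted p = 0.00124). Without each library in turn the change stayed between 2.98 and 3.80 and past the test. The nearest coding gene, omt2, for a pterin dehydratase, lies 377 bases away on the same strand, had 4 counts at 0h and 40 at 24h, and was not tested.

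Other noncoding RNAs looked up by name, sme2, nam1 and SPNCRNA.1343, fell below the limit of 50 summed counts. sme2 (SPNCRNA.103), the RNA at which Mei2 forms its nuclear dot, had 0, 1 and 1 counts at 0h and 0, 9 and 23 at 24h. nam1 (SPNCRNA.1459), upstream of byr2, had 1, 2 and 1 counts and 0, 13 and 12. SPNCRNA.1343, which lies upstream of the phosphate-responsive gene tgp1, had 0, 1 and 0 counts and 3, 0 and 11. In the edgeR fit with no filter none of the 3 passed, with adjusted p of 0.278 for sme2, 0.745 for nam1 and 0.503 for SPNCRNA.1343. rse1 (SPNCRNA.111), known as a repressor of the mating regulator Ste11, and lncRNA584 (SPNCRNA.584) were members but not tested, with 6 and 15 counts at 0h and 57 and 72 at 24h.

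SPNCRNA.935, the other intergenic member that was higher at 24h, had 30.1, 73.9 and 0 CPM at 0h and 299, 234 and 346 CPM at 24h. The groups were well apart, and the log2 change was 3.12 (SE 0.67, edgeR adjusted p = 0.00786). That change was 5.30 without 0h replicate 2 and 2.21 when 0h replicate 3 was left out, past the test both times. It lies 607 bases from per1, an amino acid permease gene, on the same strand. per1 itself had 512, 232 and 222 CPM at 0h and 1150, 1234 and 1846 CPM at 24h, a log2 change of 2.20 (SE 0.47, edgeR adjusted p = 0.00762, but 0.0528 when 0h replicate 2 was left out). On the other strand, SPNCRNA.934 covers the same stretch, with 99.5% of the shorter RNA overlapping. It had 0, 7 and 1 counts at 0h and 5, 18 and 99 at 24h and was not tested.

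SPNCRNA.1153, an intergenic RNA near bfr1, a brefeldin A efflux transporter gene, fell. It had 211, 127 and 170 CPM at 0h and 14.9, 7.55 and 35.0 CPM at 24h. All 24h libraries lay below the 0h libraries, and the log2 change was -2.77 (SE 0.52, edgeR adjusted p = 0.0043). It was -4.10 without 24h replicate 3. bfr1 had 854 ± 237 CPM at 0h against 691 ± 226 CPM in the 24h group (SD, n = 3), a change of -0.30 (SE 0.41, edgeR adjusted p = 0.614).

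Among the tested antisense RNAs, SPNCRNA.838 had the largest fall. It lies wholly opposite vrs2, the gene of a valine tRNA ligase, and had 241, 243 and 162 CPM at 0h and 0, 10.1 and 21.7 CPM at 24h. The groups were far apart, with a log2 change of -3.69 (SE 0.48, edgeR adjusted p = 0.00114), or -4.53 without 24h replicate 3. vrs2 had 122 ± 56.5 CPM at 0h against 33.4 ± 29.9 CPM in the 24h group (SD, n = 3), and its change of -1.28 (SE 0.56) did not pass (edgeR adjusted p = 0.118).

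SPNCRNA.837 lies 2803 bases from SPNCRNA.838 on the same strand and wholly opposite SPAC4A8.06c, annotated as an esterase or lipase. It had 120, 253 and 136 CPM at 0h and 0, 0 and 31.3 CPM at 24h. The groups did not overlap and the log2 change was -3.30 (SE 0.73, edgeR adjusted p = 0.00886), with an edgeR adjusted p of 0.0705 without 0h replicate 2. Its size rested on 24h replicate 3, the 24h library with its reads: the fitted change was -7.68 without that library, when the 24h group had 0 counts and the value is no bound, and -2.69 without 24h replicate 2. Of the 6 fits without single libraries, 5 tested SPNCRNA.837. SPAC4A8.06c had 16 counts at 0h and 33 at 24h and was not tested.

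SPNCRNA.1428, 98.9% of which lies opposite sqs1, a gene for a protein with G-patch and R3H domains, had 151, 179 and 145 CPM at 0h and 14.9, 7.55 and 18.1 CPM at 24h. Its libraries agreed closely within each group, and the log2 change was -3.45 (SE 0.45, edgeR adjusted p = 0.00114), or -4.08 without 24h replicate 3. SPNCRNA.812, with 29.6% of its length opposite mix17, a mitochondrial CHCH domain protein gene, had 602, 465 and 256 CPM at 0h and 0, 22.7 and 61.5 CPM at 24h. It fell by 3.44 on the log2 scale (SE 0.57, edgeR adjusted p = 0.00262), with more spread among its 0h libraries, and by 4.51 without 24h replicate 3. Neither sqs1 nor mix17 was tested.

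SPNCRNA.1658, opposite pdp2, a gene for a PWWP domain protein, had 482, 370 and 264 CPM at 0h and 44.8, 25.2 and 51.8 CPM at 24h. No 24h library reached a 0h library, and the log2 change was -3.12 (SE 0.41, edgeR adjusted p = 0.00114). It was the called antisense RNA whose coding partner also passed the test. pdp2 had 151, 158 and 111 CPM at 0h and 29.9, 45.3 and 54.3 CPM at 24h, a log2 change of -1.50 (SE 0.37, edgeR adjusted p = 0.0142). For pdp2 the edgeR adjusted p was 0.0849 when 0h replicate 2 was left out, 0.159 with library totals and 0.0941 with no filter, and DESeq2 gave 0.148. Scaled by aligned reads pdp2 was higher, by 1.90 (edgeR adjusted p = 0.0132).

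SPNCRNA.1026 lies wholly opposite fus1, the formin gene that builds the actin focus of mating cells. It had 181, 211 and 145 CPM at 0h and 29.9, 15.1 and 37.4 CPM at 24h, without overlap. The log2 change was -2.62 (SE 0.43, edgeR adjusted p = 0.00247), or -3.28 without 24h replicate 3, while fus1 had a change of -0.26 (SE 0.50, edgeR adjusted p = 0.73).

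SPNCRNA.1082, 77.9% opposite sec16, a vesicle coat gene, had 151, 95.02 and 102 CPM at 0h and 29.9, 20.1 and 35.0 CPM at 24h. It changed by -1.88, without overlap between groups (SE 0.46, edgeR adjusted p = 0.0135). With library totals the edgeR adjusted p was 0.0686, and DESeq2 gave an adjusted p of 0.0791. SPNCRNA.1082 was tested in 3 of the 6 fits without single libraries and passed in each of these. For sec16 the value was -0.54 (SE 0.31, edgeR adjusted p = 0.216).

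SPNCRNA.979 overlaps gpd2, a glycerol-3-phosphate dehydrogenase gene, by 4.0% of its length. It had 211, 95.02 and 102 CPM at 0h and 44.8, 20.1 and 45.8 CPM at 24h, without overlap, and changed by -1.71 (SE 0.49, edgeR adjusted p = 0.0252). Of the 6 fits without single libraries, 3 tested SPNCRNA.979. The edgeR adjusted p was 0.0735 when 0h replicate 1 was left out, 0.0545 without 0h replicate 2 and 0.0377 without 24h replicate 1. It was 0.101 with library totals and 0.0588 with no filter, and DESeq2 gave an adjusted p of 0.118. gpd2 had a change of 0.02 (SE 0.39, edgeR adjusted p = 0.977). SPNCRNA.504, which had no match in the annotation, had 120, 359 and 349 CPM at 0h and 44.8, 40.3 and 19.3 CPM at 24h. Its change was -3.30 (SE 0.47, edgeR adjusted p = 0.00156), and 5 of the 6 fits without single libraries tested it.

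These falls hold relative to the other assigned reads. Scaled by aligned reads, SPNCRNA.838, SPNCRNA.837, SPNCRNA.812 and SPNCRNA.1428 kept a negative log2 change, of -0.66, -0.65, -0.37 and -0.34, none past the edgeR test. The sign turned for SPNCRNA.1026 (0.56), SPNCRNA.504 (0.51), SPNCRNA.1658 (0.19) and SPNCRNA.1153 (0.13), again not past the test. SPNCRNA.1082 and SPNCRNA.979 passed in the other direction, at 1.36 and 1.48 (edgeR adjusted p = 0.0449 and 0.0384). All 4 RNAs that stayed negative were below the median of 3.55 over all tested features, as were the 6 that turned. Since these RNAs were chosen as lower with TMM scaling, this position follows from the choice and is no separate evidence.

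SPNCRNA.577 had the largest rise among the 23 tested antisense RNAs. It lies with 91.3% of its length opposite SPBC1652.02, an amino acid transporter gene, and had 0, 2 and 1 counts at 0h and 10, 105 and 128 counts at 24h. In CPM the 24h libraries had 149, 264 and 154, all far above the 0h libraries. The pooled ratio of 24h to 0h CPM was 15.4 (95% counting interval 5.19 to 75.0), and the edgeR adjusted p was 0.00218. The fitted log2 change was 3.94, or 4.79 without 0h replicate 2. SPBC1652.02 had 104 ± 28.4 CPM at 0h against 89.5 ± 71.1 CPM in the 24h group (SD, n = 3), a change of -0.40 (SE 0.77, edgeR adjusted p = 0.733).

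SPNCRNA.1597 was the antisense member with the most reads. It lies with 70.2% of its length opposite lys9, the saccharopine dehydrogenase gene of lysine synthesis, and lies 2 bases from a small nucleolar RNA gene on its own strand. It had 1807, 982 and 1662 CPM at 0h and 13514, 3893 and 2902 CPM at 24h. In the 24h group, which did not overlap the 0h group, replicate 1 stood highest, and the log2 change was 2.19 (SE 0.66, edgeR adjusted p = 0.0319). The call was lost without 0h replicate 1, 2 or 3 (edgeR adjusted p = 0.0784, 0.158 and 0.0865) and without 24h replicate 1 (0.132), when the change was 1.26. For lys9 the value was -0.62 (SE 0.36, edgeR adjusted p = 0.227).

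SPNCRNA.1042, with 59.4% of its length opposite pxr1, a ribosome biogenesis gene, had 90.3, 148 and 170 CPM at 0h and 164, 924 and 581 CPM at 24h. The groups overlapped, since 24h replicate 1 lay below 0h replicate 3, and the log2 change was 1.99 (SE 0.55, edgeR adjusted p = 0.022). The call was lost without 0h replicate 1, 2 or 3 (edgeR adjusted p = 0.0759, 0.0812 and 0.0624) and without 24h replicate 2 (0.0581). pxr1 had 6 counts at 0h and 36 at 24h and was not tested.

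The abundant antisense RNA SPNCRNA.1626, opposite mbx2, a MADS-box transcription factor gene, did not pass. It had 1536, 876 and 903 CPM at 0h and 687, 846 and 729 CPM at 24h, with a change of -0.53 (SE 0.39, edgeR adjusted p = 0.344). SPNCRNA.1528 lies wholly opposite tri1, the gene of the Triman nuclease that trims Argonaute-bound small RNA. Its libraries varied widely, with 271, 148 and 793 CPM at 0h and 14.9, 2.52 and 216 CPM at 24h, and the change of -2.14 (SE 1.07) did not pass (edgeR adjusted p = 0.174).

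The coding genes opposite the 49 antisense members were counted as features of their own. Of these, 25 were tested, 3 were higher and 4 lower, with a median log2 change of -0.35, beside 13.1 percent higher and 12.8 percent lower among all tested features. Without 0h replicate 2 these counts were 0 and 2, and without 24h replicate 3 they were 1 and 5. Both RNAs of a pair were tested in 14 cases, and the signs were the same in 9: both negative in 8 and both positive in 1. In 4 the antisense RNA had a positive and the coding gene a negative value, and in 1 the reverse held. The coding gene was thus negative in most pairs, whichever sign the antisense RNA had. A link within pairs was not tested. Unless counting used strand, reads from a gene and its antisense RNA cannot be told apart. The 7 members lying wholly opposite a coding gene in ASM294v3 did have counts. HTSeq gives counts to a feature lying wholly inside a counted coding feature only when strand is used. Whether the features counted on ASM294v2 had the same ends could not be checked, so the use of strand is not established. The submitters' notes do not say which strand was taken as sense.

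**Figure D4:**
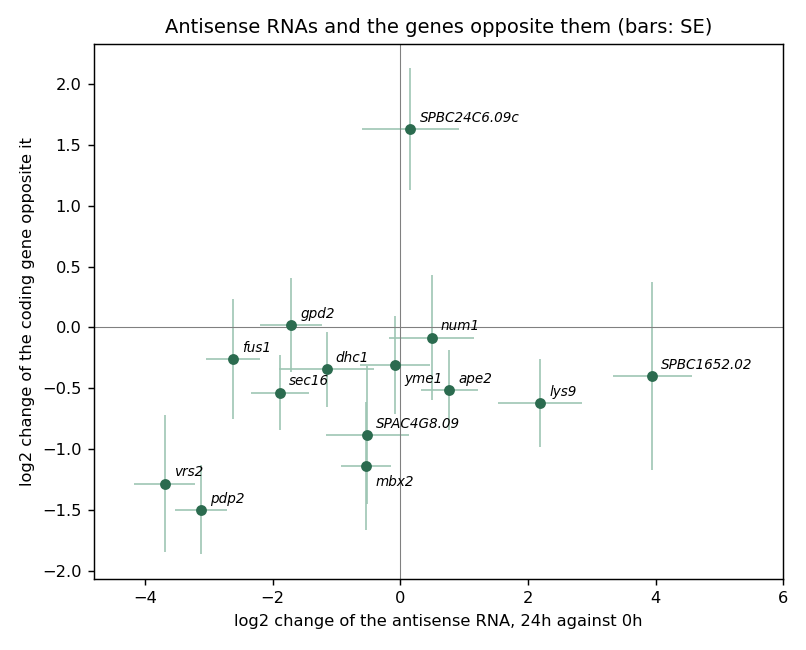
Log2 change (24h against 0h, TMM scaling) of each tested antisense RNA against that of the coding gene opposite it, for the 14 pairs with both tested; bars are SE and labels name the coding gene. Of the 14, 8 lie in the lower left, pdp2 at -1.50 with its antisense RNA at -3.12, and the coding gene opposite SPNCRNA.577 at 3.94 is at -0.40. Per aligned read 24 of the 25 tested coding genes were called higher, beside 93.9 percent of all tested features.

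The other 37 members, with 50 to 295 summed counts, did not reach the filter. 24h replicate 3 held a median of 62.5% of their reads, from 30% to 93.7%, beside 49.3% for the tested members and 52.8% over all 2987 features with at least 50 summed counts. An edgeR fit with no filter, which takes in all 80 members, called 22 (27.5%) higher and 11 (13.75%) lower. Over all 6207 features of that fit the shares were 7.72 and 5.43 percent, and over those with at least 50 summed counts 15.4 and 5.99 percent. The limit of 50 was itself filled largely by 24h reads, so the share of higher calls cannot be read apart from it.

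A few of the untested members are given here for their values, chosen after these were seen. SPNCRNA.1100, opposite hsp3101, a glyoxylase gene, had 0 counts in each 0h library and 2, 3 and 54 at 24h. Nearly all of its reads came from 24h replicate 3. SPNCRNA.1364, opposite htr11, a serine protease gene, had 0 counts in each 0h library and 2, 19 and 56 at 24h. Both coding genes were higher at 24h, hsp3101 by 3.27 (SE 0.91, edgeR adjusted p = 0.0228) and htr11 by 1.85 (SE 0.43, edgeR adjusted p = 0.0109) on the log2 scale. Leaving out 0h replicates 1 and 2 or 24h replicates 1 and 3 in turn ended the call for hsp3101 (edgeR adjusted p = 0.0657, 0.150, 0.0595 and 0.0879), and its change was 1.73 without 24h replicate 3 and 4.99 when 0h replicate 3 was left out. For htr11 only 0h replicate 2 did so (edgeR adjusted p = 0.0525).

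SPNCRNA.737, next to the mitotic kinase gene fin1, had 1, 3 and 2 counts at 0h and 5, 13 and 271 at 24h, nearly all from 24h replicate 3. SPNCRNA.1234, opposite nmt1, the thiamine synthesis gene, had 5, 5 and 2 counts at 0h and 1, 6 and 38 at 24h. nmt1 itself fell by 3.28 on the log2 scale (SE 0.69, edgeR adjusted p = 0.00743; a log2 change of -2.69 without 0h replicate 3 and of 0.47 per aligned read, the last not past the test), while SPNCRNA.1234 had an unfiltered value of -0.44 (SE 0.64, edgeR adjusted p = 0.741).

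The genes that make and read these RNAs were seen through small RNA from their own transcripts, which is no measure of their protein. Of 13 RNA elimination genes, 12 were found and 3 tested, pla1, dis3 and dhp1, with log2 changes of -0.67, 0.25 and 0.71. Of 16 genes of RNA interference and heterochromatin, 2 were tested, ago1 at -0.11 and rdp1 at -0.75. The edgeR test called 0 of these 5 in either direction, and 0 had an unadjusted p under 0.05. With DESeq2, 0 genes of the lists were higher and 1 was lower; with no filter edgeR called 1 higher and 1 lower. mmi1, which encodes the protein that binds TNAAAC, had 21 counts at 0h and 88 at 24h, and dcr1, the Dicer gene, had 8 and 85.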

How the data were processed

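The deposited files held raw counts per feature, made by the authors. Per the submitters' processing notes, the tools were Cutadapt, Bowtie2 2.1.0 and HTSeq 0.6.1, on genome build ASM294v2; no source used here gives their options or strand setting. Low-mapping-quality reads, which include those from repeats, were left out of the counts, and so were the HTSeq tally lines.

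The whole table was tested in R 4.3.3 by edgeR 4.0.16 (robust quasi-likelihood, group as the only term, two-sided) after TMM scaling and filtering by filterByExpr at its minimum count of 10, with Benjamini-Hochberg adjustment. SE is the log2 change over the square root of F. The fit was tested on simulated data. Alternatives used DESeq2 1.42.0, other scalings, other filters and left-out libraries. The labels name replicates but not separate cultures, so p-values measure only the spread between these samples. Without molecular identifiers, intervals and floors cover counting error only.

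IDs, classes and sequences came from RefSeq ASM294v3; because the files use ASM294v2, no genome coordinates are given. The text names every member past the test with its coding partner, the 5 most abundant per group, the members and features next to the limit, and sme2, SPNCRNA.1343 and nam1. Structural RNAs of known function, rse1, lncRNA584, SPNCRNA.1528, some untested members and mmi1 and dcr1 were added. Members and lists were chosen with earlier results of these data known. Shares held by the chosen members were given without a test.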

Additional observations from a re-analysis of the deposited data

How the results depend on the processing

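Counts of calls moved with scaling, filters and left-out libraries, and the cause was not tested. With library totals 568 of all features were higher and 95 lower, against 224 and 220 with TMM, and 17 members were higher against 8. Per aligned read 1611 features were higher and 4 lower, and 34 members were higher and 0 lower. With no filter 479 features were higher and 337 lower, and 22 members were higher. With a minimum count of 30, which left 13 members to test, 100 features were higher and 76 lower, and 4 members were higher and 0 lower. Leaving out each library in turn gave 110 to 204 higher and 147 to 235 lower features, 3 to 10 higher members (3 when 0h replicate 2 or 0h replicate 3 was left out) and 7 to 13 lower members. DESeq2, which took in all 80 members, called 8 higher and 10 lower, beside 179 and 202 of 6207 features. TMM without the 5 pericentromeric RNAs tested 39 members and called 7 and 10, beside 205 and 196 of 1397 features.

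Per aligned read the log2 change turned positive for SPNCRNA.1026 (0.56), SPNCRNA.1082 (1.36), SPNCRNA.1153 (0.13), SPNCRNA.1658 (0.19), SPNCRNA.504 (0.51) and SPNCRNA.979 (1.48). Without the 5 pericentromeric RNAs in the total, the members' share differed by 0.136 points in place of 2.14. Called coding partners numbered 3 higher and 4 lower, 5 and 2 with library totals, 24 and 0 per aligned read, and, with a minimum count of 30, 1 and 1. With no filter they were 3 and 2, with DESeq2 2 and 2, and without single libraries 0 to 3 and 2 to 5. The listed RNA elimination and interference genes had 1 higher with library totals and with no filter, 5 per aligned read, and 1 lower with no filter and with DESeq2. The median of the tested members was 0.16, 0.78 with library totals, 3.60 per aligned read, 0.19 with TMM without the pericentromeric RNAs, 0.73 with no filter, 0.57 with a minimum count of 30, 0.51 with DESeq2 and -0.13 to 0.39 without single libraries.

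Same-numbered libraries correlated at 0.041, 0.136 and 0.161 in their deviations from the group means. The labels do not say whether same-numbered samples were paired, and these correlations cannot settle it. The main test treated the samples as unpaired. Every library correlated best with its own number, which is a hint from the data only. With a replicate block, 279 features were higher and 271 lower, 11 members were higher and 13 lower, 3 partners were higher and 5 lower, and the median was 0.07. Every member past the test passed it there too. Depth limits the rest: at 48040 assigned reads in the smallest library, the filter level of 77.4 CPM before TMM scaling is only a few reads.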
